A study of Mus musculus with 12 samples.

Results

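The cytosolic ribosomal protein genes encode the protein components of the large and the small subunit of the ribosome that translates nuclear-encoded mRNA. They were taken from the FPKM table (fragments per transcript length and sequencing depth) by symbol: names that start with Rpl or Rps and a digit, plus Rplp0, Rplp1, Rplp2 and Rpsa, without the Rps6k kinases and without names marked as pseudogenes. This gave 86 of 23284 genes, of which 46 encode large subunit proteins, 31 encode small subunit proteins, 8 are paralogues of another member, and 1, Rps19bp1, carries the name but encodes a protein that binds RPS19. The first 77 are called core members here.

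RNA came from group 3 innate lymphoid cells (ILC3s) sorted from the small intestine of HR-1 hairless mice aged 18 weeks. In the PA milk groups the nursing mothers ate chow with added palmitic acid, a saturated fatty acid, and in the ND groups they ate a normal diet. The study says that PA milk pups were born to ND mothers and swapped to these nursing mothers after birth. It does not say so of ND pups, and if only PA milk pups were swapped, milk and swap cannot be told apart. Cells came from the intraepithelial layer (IEL) or the lamina propria (LP), which gave 4 groups (ND IEL, PA IEL, ND LP, PA LP) of 3 libraries each. The sort took lineage-negative cells with Thy1.2, CD25 and Nrp1 on their surface, and the study also names CD4 in its methods and CD45 in a legend, a conflict that could not be settled here. Libraries were made from amplified cDNA with SMART-Seq v4, without molecular identifiers, so reads are not independent molecules. The labels do not say that replicates were separate mice, so p-values measure only the spread between these samples, which may be technical.

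The sum of scaled counts ranged from 9376529 in ND IEL 3 to 11710874 in ND IEL 2, so it says little of the depth before scaling. Genes at 1 FPKM or more numbered 11121, 7863 and 11172 in ND IEL replicates 1, 2 and 3, 10145, 4390 and 9754 in PA IEL, 9595, 11158 and 11282 in ND LP, and 8406, 5637 and 11378 in PA LP. Values per library follow this order of replicates throughout. PA IEL 2 and PA LP 2 thus listed far fewer genes than the others. Even of the other tested genes with a median of at least 100 FPKM over the remaining libraries, PA IEL 2 listed 866 of 1004 (86.3%) and PA LP 2 listed 943 of 1017 (92.7%) at 1 FPKM or more. Of the 86 members, 81 were at 1 FPKM or more in PA IEL 2 and 80 in PA LP 2, against 81 to 84 in the other libraries. As nearly all members lie far above 1 FPKM, this count does not show that their levels in these libraries were unaffected.

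The label was checked against 15 genes of ILC3s and of the sort, all of which were tested. Their FPKM summed to 341, 331 and 657 in ND IEL, 2008, 327 and 1102 in PA IEL, 800, 5385 and 932 in ND LP, and 322, 154 and 461 in PA LP, and the most abundant was Id2, with a median of 299. Id2, which encodes a regulator that innate lymphoid cells need, was listed at 110, 217 and 273 FPKM in ND IEL, 750, 326 and 586 in PA IEL, 539, 455 and 546 in ND LP, and 190, 95.2 and 240 in PA LP. It was lower in PA LP than in ND LP and higher in PA IEL than in ND IEL, both without overlap. Thy1 was listed at 0 in ND IEL 2, PA IEL 2, ND LP 1, PA LP 1 and PA LP 2, although it was part of the gate, and Nrp1 was at 0 in PA IEL 2. The libraries are called by their labels below.

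Genes of other cell types were also present. The 16 epithelial genes, led by Krt8 with a median of 1216 FPKM, summed to 25951, 95122 and 30591 in ND IEL, 9898, 5415 and 60453 in PA IEL, 3571, 5355 and 6719 in ND LP, and 1793, 2310 and 400 in PA LP. No epithelial gene was at 0 in all libraries. The 7 listed B and plasma cell genes, led by Igj with a median of 850 FPKM, summed to 1436, 53.8 and 3529 in ND IEL, 18274, 141 and 12.3 in PA IEL, 1672, 1161 and 6793 in ND LP, and 11.2, 148 and 7768 in PA LP. The epithelial sum of each IEL library except PA IEL 2 was above that of every LP library, and B and plasma cell sums differed widely within each group.

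Each ribosome carries a single copy of nearly all ribosomal proteins, around ribosomal RNA that forms the catalytic centre. The mRNAs of these proteins are among the most abundant of a cell, and in mammals they begin with a pyrimidine tract (the TOP motif) through which mTOR signalling and LARP1 control their translation. Growing and activated lymphocytes raise ribosome production, so the set is often read as a measure of biosynthetic activity.

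Members took a larger share of all FPKM in LP than in IEL libraries on average. The share was 6.88%, 4.59% and 5.50% in ND IEL, 7.01%, 8.43% and 5.16% in PA IEL, 6.57%, 7.54% and 8.23% in ND LP, and 9.11%, 10.9% and 6.53% in PA LP. Group means were 5.66% ± 1.16 in ND IEL, 6.87% ± 1.64 in PA IEL, 7.45% ± 0.837 in ND LP and 8.86% ± 2.21 in PA LP (SD, n = 3). The ranges of ND IEL and ND LP overlapped through ND IEL 1, those of PA IEL and PA LP through PA IEL 1 and 2 and PA LP 3, and PA milk and ND overlapped in both layers. In each PA milk layer the sparse replicate 2 had the highest share. As a bulk measurement, the share cannot tell apart fewer cells of a type and less RNA per cell.

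**Figure D1:**
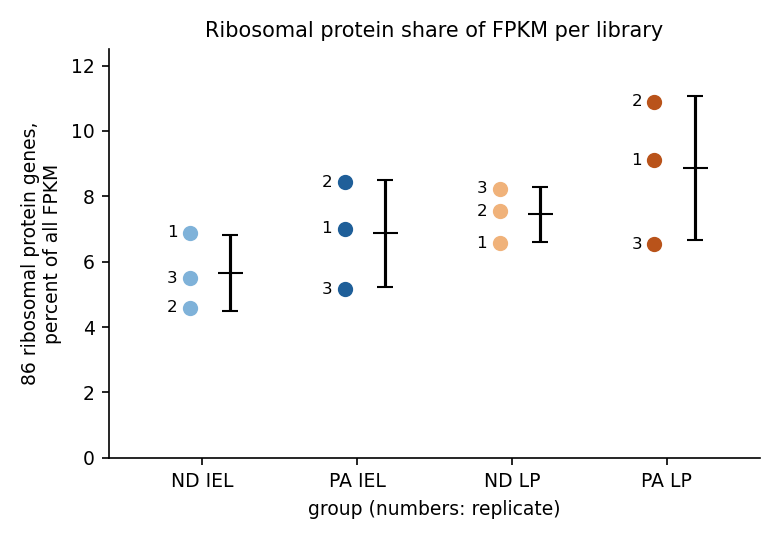
Share of all FPKM, in percent, taken by the 86 ribosomal protein genes in each library (points, numbered by replicate), with the mean and SD of each group of 3 beside them. The highest points are PA LP 2 at 10.9% and PA LP 1 at 9.11%, the lowest is ND IEL 2 at 4.59%, and all neighbouring groups overlap.

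The share is a fraction of a total that marker genes of other cells enter. ND IEL 2, with the lowest share, had the highest epithelial sum, and PA IEL 3, with a share of 5.16%, had the second highest at 60453. PA LP 3 went the other way, with the lowest epithelial sum, 400, and the lowest share of the LP libraries, 6.53%. With the genes of the lists of other cell types left out of the total, the share was 7.27%, 5.16% and 5.86% in ND IEL, 7.37%, 8.53% and 5.56% in PA IEL, 6.99%, 7.66% and 8.61% in ND LP, and 9.16%, 11.1% and 6.66% in PA LP. The order of the 4 group means was the same, from 6.09% in ND IEL through 7.15% in PA IEL and 7.76% in ND LP to 8.96% in PA LP. RNA of other cells that is not in these lists was not tested. The summed FPKM of members ranged from 39870 in ND IEL 3 to 83775 in PA LP 2.

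Core members were expressed far above most genes. Their medians over the 12 libraries ranged from 2.46 FPKM for Rpl26 to 2153 for Rpl13, with a middle value of 541 and quartiles of 345 and 720. That middle value lay at the 98.8th percentile of all 12502 tested genes, whose median was 8.90 FPKM. Of the 77 core members, 14 had a median over 1000 FPKM, 42 over 500, 73 over 100 and 76 over 10. The 4 under 100 were Rpl22, Rps15a, Rpl30 and Rpl26.

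Large subunit genes led the order. RPL13, RPL41, RPL38 and RPL35 are all proteins of the large subunit, and RPL41 is a peptide so short that its coding sequence has 75 bases. Rpl13 was listed at 1810, 1455 and 1772 FPKM in ND IEL, 1730, 2216 and 1532 in PA IEL, 2091, 2535 and 2745 in ND LP, and 2965, 2672 and 2406 in PA LP. Apart from PA IEL 2, every IEL value lay below every LP value. Rpl41 was listed at 1906, 1171 and 1499 FPKM in ND IEL, 1628, 1662 and 1463 in PA IEL, 2128, 1968 and 2440 in ND LP, and 2875, 3869 and 2342 in PA LP. For this gene all 6 IEL values lay below all 6 LP values. Rpl38 was listed at 1943, 1681 and 1306 FPKM in ND IEL, 1291, 2446 and 1969 in PA IEL, 1747, 1628 and 2551 in ND LP, and 2505, 4115 and 1586 in PA LP, and its layers overlapped. Rpl35 was listed at 1531, 1459 and 962 FPKM in ND IEL, 1742, 1564 and 1412 in PA IEL, 1876, 2020 and 1977 in ND LP, and 2869, 2688 and 1778 in PA LP, again with every IEL value below every LP value. The other large subunit genes among the 10 highest were Rpl32, with a median of 1335 FPKM (752 to 2143), and Rpl36, with 1176 (858 to 1758). The ranges over libraries of neighbours in this order overlapped.

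Small subunit genes followed closely. Rps19 encodes a protein needed to mature 18S ribosomal RNA and mutated in Diamond-Blackfan anaemia. It was listed at 1066, 705 and 975 FPKM in ND IEL, 999, 1273 and 761 in PA IEL, 1584, 1523 and 1661 in ND LP, and 1401, 2288 and 1790 in PA LP. All 6 IEL values of Rps19 lay below all 6 LP values. Rps29 had a median of 1290 FPKM (985 to 3232), Rps14 of 1230 (664 to 1970) and Rps2 of 1216 (819 to 1431). The 10 highest core members of each library, ranked anew in each, together made up 28.2% to 32.9% of the summed FPKM of all members there.

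The balance of the subunits was narrow. Summed FPKM of the 46 large subunit genes over that of the 31 small subunit genes was 1.43, 1.49 and 1.46 in ND IEL, 1.44, 1.22 and 1.42 in PA IEL, 1.44, 1.37 and 1.43 in ND LP, and 1.47, 1.51 and 1.42 in PA LP. The sparse libraries held both ends, 1.22 in PA IEL 2 and 1.51 in PA LP 2. The other 10 libraries lay between them.

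Members also varied less between replicates than other genes. The SD of log2(FPKM + 1) within groups had a median of 0.43 over the 83 tested members, against 1.48 over all tested genes and 0.68 over the 1005 other tested genes with a median of at least 100 FPKM. It was highest for Rps27, at 2.96. The 5 members with an SD over 1 were Rps27, Rps4y2, Rps19bp1, Rpl26 and Rpl7l1. For comparison, 9605 of the tested genes and 274 of the other abundant genes exceeded 1.

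Comparison of IEL with LP asks how the same sorted population differs between the layers. In ND mice most members were lower in IEL, by a modest amount. Of the 83 tested members, 75 had a negative and 8 a positive log2 fold change, with a median of -0.33, against -0.09 over all tested genes, of which 46.4% were positive. The median was -0.29 for large and -0.35 for small subunit genes. None passed limma's adjusted p of 0.05, where 0.0320% of all tested genes did, and the lowest adjusted p of a member was 0.414. At an unadjusted p under 0.05, 6 members were lower in IEL (3.64% of all tested genes) and 0 were higher (2.99%). The number of members under this unadjusted p was 1 without ND LP 3, 2 without ND IEL 3 and 3 without ND IEL 2. Here and below, such counts from alternative fits come without the share of all tested genes. They therefore do not show whether members exceeded the background. With limma-voom on scaled counts, 0 passed the adjusted threshold and 5 had an unadjusted p under 0.05. All 3 ND IEL values lay below all 3 ND LP values for 25 members, or 30.1% of them, against 9.34% of tested genes. The reverse held for 1 member, Rps4y2, against 9.95% of tested genes.

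Rps19 had the smallest p of a member in ND, with a log2 fold change of -0.82 (SE 0.27, limma adjusted p = 0.414). Rpl13 followed, at -0.55 (SE 0.21, limma adjusted p = 0.547), and then Rpl30, at -2.79 (SE 1.08, limma adjusted p = 0.584). With the near-identical copy of Rpl30 summed, described further on, its log2 fold change was 0.05, and its unadjusted p was no longer under the threshold. Rpl35 was at -0.60 (SE 0.24, limma adjusted p = 0.605), and at -0.39 without ND IEL 3. Rpl41, at -0.54, and Rpl37a, at -0.63, were the other members with an unadjusted p under 0.05 (0.0352 and 0.0447). Rps27l, at 0.42, and Rpl7a, at 0.28, had the most positive values after Rps4y2, at 2.39, and neither Rps27l nor Rpl7a had groups that stood apart. Without ND IEL 2 these were 0.25 for Rps27l and 0.04 for Rpl7a, and Rps4y2 was at 0.96 without ND LP 1.

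In PA milk mice the layers differed in the same direction. Of the 83 tested members, 69 were lower and 14 higher in IEL, with a median of -0.40 against -0.03 over all tested genes, of which 48.3% were higher. The median was -0.43 for large and -0.32 for small subunit genes. None passed limma's adjusted threshold, where 0.144% of tested genes did, and the lowest adjusted p of a member was 0.191. At an unadjusted p under 0.05, 10 members were lower (5.70% of all tested genes) and 2, Rpl26 and Rps27, were higher (4.92%), of which Rpl26 was listed at 0 in PA LP. Both turned direction with their near-identical copies summed, Rps27 to -0.63 (limma adjusted p = 0.404) from 4.29 alone and Rpl26 to -0.41. With copies summed, 11 members were under the unadjusted threshold. Without copies summed, the count of 12 became 6 without PA LP 1, 7 without PA LP 2, 23 without PA LP 3 and 5 with only the groups compared. The shares of all tested genes above belong to the main fit only, so these counts have no background. With limma-voom, 0 members passed and 9 had an unadjusted p under 0.05. All PA IEL values lay below all PA LP values for 14 members, or 16.9%, against 4.51% of tested genes, and above them for 1, Rpl26, against 4.06%.

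Rpl41 had the smallest p of a member in any comparison, with a log2 fold change of -0.91 (SE 0.23, limma adjusted p = 0.191). Rps20, a protein of the head of the small subunit, was listed at 464, 405 and 463 FPKM in PA IEL and at 1260, 949 and 710 in PA LP. Its log2 fold change was -1.09 (SE 0.35, limma adjusted p = 0.346). In ND it was 654, 543 and 412 in IEL against 546, 651 and 959 in LP, and there the layers overlapped. Rps19 was at -0.86 (SE 0.27, limma adjusted p = 0.351). Below an unadjusted p of 0.05 were also Rps14 at -0.77, Rpl13 at -0.57, Rpl37a at -0.74, Rpl35 at -0.61, Rplp1 at -0.91, Rpl37 at -0.97 and Rpl28 at -0.89.

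The layer comparisons in ND and in PA milk have no library in common. In both, Rpl13, Rpl35, Rpl41 and Rps19 were among the members with IEL values wholly below LP values. Such members were 7 of the 25 members in ND (28.0%) and 7 of the 14 in PA milk, and over all tested genes the shared genes were 115, or 9.85% and 20.4% of the 2 lists. The median over members in PA milk ranged from -0.61 without PA LP 3, against 0.17 over all genes, to -0.18 without PA LP 2, with 25 of 83 higher, against -0.23 over all genes. Without PA IEL 1 it was -0.22, against -0.30 over all genes. Without PA LP 2, or without PA IEL 1, the median member was thus no lower than the median gene. In ND the median over members ranged from -0.40 to -0.26 with any library left out, and that over all genes from -0.15 to 0.05. Without both sparse libraries it was -0.33 in ND, with 8 members higher, and -0.36 in PA milk, with 10 higher.

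Epithelial markers were higher in IEL. Over the 16 epithelial genes the median log2 fold change of IEL over LP was 2.52 in ND, with 15 higher, and 3.09 in PA milk, with 13 higher. Limma's adjusted threshold was passed by 1 of them in ND, Apoa1, and by 3 in PA milk, Apoa1, Apoa4 and Alpi. Most other lists were lower in IEL in ND, but not the NK and ILC1 genes, of which 5 of 5 tested were higher (median 1.80). In ND, 7 of 7 stromal and endothelial genes (median -2.88), 7 of 7 goblet cell genes (-3.33), 7 of 7 B and plasma cell genes (-2.86) and 13 of the 15 ILC3 and sort genes (-1.29) were lower than in LP. In PA milk, 6 of the 7 stromal and endothelial genes (-2.72) and 5 of the 7 goblet cell genes (-0.86) were lower, while 5 of the 7 B and plasma cell genes (0.31) and 9 of the 15 ILC3 and sort genes (0.92) were higher. The 6 Paneth cell genes had a median of -0.88 in ND, with 4 lower, and of -3.74 in PA milk, with 6 lower, 4 of them at an unadjusted limma p under 0.05. In PA milk, 3 of the 5 NK and ILC1 genes were lower (-0.85). T cell genes were lower for 6 of 9 in both (-0.87 and -1.59), and myeloid genes for 5 of 9 in both (-0.58 and -0.02). The 2 tested erythroid genes had medians of -1.84 and 0.55. The part of all these genes in the lower ribosomal protein values of IEL was not tested beyond the share without marker genes given above.

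**Figure D2:**
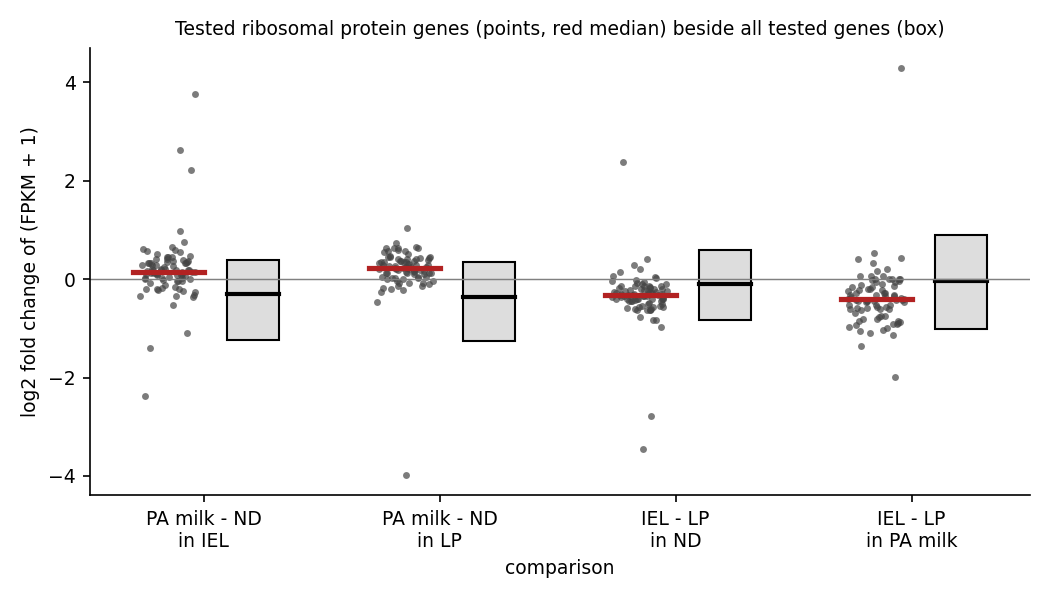
Log2 fold change of FPKM + 1 (vertical axis) of each tested ribosomal protein gene (points, with the median in red) in 4 comparisons, beside a box from the lower to the upper quartile of all tested genes with their median in black. Member medians lie at 0.15 (-0.003 without PA IEL 2) and 0.23 (0.02 without PA LP 2, 0.46 without PA LP 3) for PA milk against ND and at -0.33 and -0.40 (-0.18 without PA LP 2, -0.61 without PA LP 3) for IEL against LP, and Rpl26 is left out where PA LP enters because it was listed at 0 there.

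Comparison of PA milk with ND asks what nursing on palmitic acid milk, together with any swap of pups, left in these cells at 18 weeks. In IEL, 61 of the 83 tested members were higher and 22 lower in PA milk, with a median log2 fold change of 0.15, against -0.30 over all tested genes, of which 38.0% were higher, but without the sparse PA IEL 2 the median over members was -0.003 with 41 of 83 higher, and that over all genes 0.001. With upper quartile scaling the median over members was 0.08, with 54 of 83 higher, and with limma-voom 0.16, with 58 higher. None passed limma's adjusted threshold, which 0% of tested genes passed, and the lowest adjusted p of a member was 0.947. At an unadjusted p under 0.05 there were 0 members higher (0.752% of tested genes) and 0 lower (2.82%), and with a library left out at most 3, without ND IEL 1 or PA LP 2. With limma-voom, 0 members passed the adjusted threshold and 1 had an unadjusted p under 0.05. Values of PA milk lay wholly above those of ND for 4 members, Rpl14, Rpl30, Rps13 and Rps27, or 4.82% against 2.97% of tested genes, and wholly below for 0, against 5.22%.

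Rps13, a small subunit protein, was listed at 397, 322 and 304 FPKM in ND IEL and 409, 1422 and 517 in PA IEL. Its log2 fold change was 0.98 (SE 0.47, limma adjusted p = 0.947), and without PA IEL 2, which held its highest value, it was 0.44. Rpl14 was listed at 506, 432 and 502 FPKM in ND IEL and 543, 801 and 521 in PA IEL, a log2 fold change of 0.35 (SE 0.32, limma adjusted p = 0.947). Again PA IEL 2 stood above the rest, and the other PA values were close to those of ND. Rps27 at 3.76, Rpl26 at 2.62 and Rpl30 at 2.22 (1.41 without ND IEL 3) had the most positive log2 fold changes in IEL, and each has a near-identical copy that the table lists at a high level. With these copies summed the values were 0.07, 0.17 and 0.14.

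In LP, 68 of the 83 tested members were higher and 15 lower in PA milk, with a median log2 fold change of 0.23, against -0.36 over all tested genes, of which 37.4% were higher. Without the sparse PA LP 2 the median over members was 0.02, with 47 of 83 higher, and that over all genes -0.05. Without PA LP 3 the median over members was 0.46, with 71 higher, and that over all genes -0.67. With upper quartile scaling it was 0.10, with 54 of 83 higher, and with limma-voom 0.07, with 51 higher. None passed limma's adjusted threshold, which 0% of tested genes passed, and the lowest adjusted p of a member was 0.979. At an unadjusted p under 0.05, 0 members were higher (0.664% of tested genes) and 1, Rps27, was lower (4.04%). With its copy summed Rps27 was at -0.06 (limma adjusted p = 0.993), and 0 members were then under the unadjusted threshold. Without PA LP 3, 10 members had an unadjusted p under 0.05, and without another library between 0 and 2. The share of all tested genes in those fits is not given, so these counts cannot be set against a background. With limma-voom, 0 members passed the adjusted threshold and 0 had an unadjusted p under 0.05. PA milk values lay wholly above ND values for 4 members, Rpl14, Rpl37a, Rps23 and Rps4x, or 4.82% against 2.97% of tested genes, and wholly below for 1, Rpl29, against 6.60%.

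Rpl37a was listed at 902, 979 and 881 FPKM in ND LP and 1182, 1438 and 1065 in PA LP, a log2 fold change of 0.41 (SE 0.29, limma adjusted p = 0.979). Rps23, a protein of the decoding centre, was listed at 662, 669 and 593 FPKM in ND LP and 941, 1228 and 717 in PA LP, at 0.55 (SE 0.34, limma adjusted p = 0.979). Both had PA LP 2 as their highest and PA LP 3 as their lowest PA value. Rpl41, at 0.45 (SE 0.23), and Rplp2, at 0.63 (SE 0.38), had the smallest unadjusted limma p after Rps27 among members with a value above 0 in every group. The most positive after Rps4y2, at 1.04, were Rpl36a, at 0.73, and Rpl11, at 0.66. Rpl36a was listed at 318, 312 and 334 FPKM in ND LP and 408, 1148 and 321 in PA LP, so PA LP 2 held by far its highest value. Without PA LP 2, Rpl41 was at 0.26, Rplp2 at 0.31, Rpl36a at 0.17 and Rpl11 at 0.32. Rpl29 was listed at 449, 451 and 412 FPKM in ND LP and 392, 218 and 370 in PA LP, at -0.46 (SE 0.45, limma adjusted p = 0.979), and at -0.20 without PA LP 2.

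Medians of several marker lists also lay away from 0 in the diet comparisons. No marker gene, and no tested gene of any kind, passed limma's adjusted threshold in either layer. In LP, goblet cell genes had the median furthest from 0, at -5.15, with 6 of 7 lower and 5 at an unadjusted limma p under 0.05. In IEL their median was -2.68, with 6 lower, and that of Paneth cell genes lay further from 0. Paneth cell genes were lower for 6 of 6 in IEL (median -3.50) and 3 of 6 in LP (-0.18). Of the 16 epithelial genes, 15 were lower in PA milk in IEL (median -1.59) and 16 in LP, from -3.45 for Vil1 to -0.79 for Epcam, with 5 at an unadjusted limma p under 0.05. T cell genes were lower for 7 of 9 in IEL (-1.93) and 8 of 9 in LP (-1.78), and NK and ILC1 genes had medians of -1.01 and 0.53. Myeloid genes (-0.23 and 0.28) and stromal and endothelial genes (0.04 and 0.03) shifted less, and the 2 erythroid genes were at 1.99 and -0.40. The 7 B and plasma cell genes had a median of -0.20 in IEL and -3.71 in LP, where 7 were lower. Of the 15 ILC3 and sort genes, 10 were higher in IEL (median 0.61) and 14 lower in LP (median -1.68). The part of these genes in the ribosomal protein values was not tested beyond the share without marker genes.

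The PA milk effect in LP minus that in IEL uses all 12 libraries. Its median over members was 0.02 (-0.04 with upper quartile scaling and -0.09 with limma-voom), against -0.03 over all tested genes, and 44 of 83 members were above 0, against 49.2% of tested genes. None passed limma's adjusted threshold (0% of tested genes), and the lowest adjusted p was 1. At an unadjusted p under 0.05, 0 members were higher (0.912% of tested genes) and 2, Rps27 and Rpl26, were lower (1.42%), and with a library left out 1 to 3 members (1 without ND IEL 1 or ND IEL 3, 3 without PA LP 2 or PA LP 3), and 0 with copies summed. With limma-voom, 0 members passed the adjusted threshold and 1 had an unadjusted p under 0.05. With a library left out, this median ranged from -0.14 without PA LP 2, against 0.22 over all genes, to 0.23 without PA LP 3, against -0.29. After Rps27 and Rpl26, the smallest p belonged to Rpl29, at -0.97 (SE 0.63; -0.58 without PA IEL 2), and Rps18, at -0.67 (SE 0.45; -0.39 without ND IEL 2).

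For a single gene, the smallest p that an exact permutation test can reach between groups of 3 is 0.1. Each group enters both a diet and a layer comparison, so a library that stands apart enters both.

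Rps27, the member with the widest spread, has a near-identical copy elsewhere in the genome. Retrotransposed copies are common for these genes: of the 85 members found in the GENCODE vM21 annotation of GRCm38, on 19 chromosomes, 78 had at least 1 other transcript with at least 95% identity over at least 90% of their coding sequence. There were 573 such copies in all, up to 56 for Rpl21. The FPKM table listed 20 of them, for 17 members. Of these, 7 are protein-coding genes under other names, with medians of at most 83.1 FPKM, and they were not summed with a member. The other 13, for 12 members, are pseudogenes or carry a ribosomal protein name, and 3 of them had a median over 100 FPKM. These were Gm9846 for Rps27, Gm15772 for Rpl26 and Gm12191 for Rpl30.

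Rps27 encodes a zinc finger protein of the small subunit and lies at chr3:90212522-90213651 on the minus strand. It was listed at 293, 16.8 and 17.0 FPKM in ND IEL, 787, 921 and 324 in PA IEL, 99.4, 1275 and 959 in ND LP, and 20.2, 0.234 and 1199 in PA LP. The highest value was 5442 times the lowest, and the LP groups ranged widely within themselves. Gm9846, which the annotation names Rps27rt and calls protein-coding, lies at chr9:114982366-114982739 on the minus strand. It was listed at 1025, 1058 and 1265 FPKM in ND IEL, 638, 283 and 901 in PA IEL, 1921, 995 and 956 in ND LP, and 2116, 1539 and 1168 in PA LP. PA LP 2, lowest in Rps27, had Gm9846 at 1539, and PA IEL 2, lowest in Gm9846, had Rps27 at 921.

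Summed, the pair gave 1318, 1075 and 1282 FPKM in ND IEL, 1425, 1204 and 1225 in PA IEL, 2020, 2269 and 1915 in ND LP, and 2136, 1540 and 2368 in PA LP. The sums ranged from 1075 to 2368, the within-group SD on the log2 scale was 0.20 in place of 2.96, and every IEL value lay below every LP value. Limma on the sums gave log2 fold changes of 0.07 for PA milk against ND in IEL and -0.06 in LP, where Rps27 alone gave 3.76 (SE 1.79) and -3.98 (SE 1.79). The difference between layers was -0.13 in place of -7.74 (SE 2.53). For IEL against LP, the sums gave -0.76 (SE 0.22) in ND and -0.63 (SE 0.22) in PA milk, where Rps27 alone gave -3.45 and 4.29. Values listed under Rps27 alone are therefore uncertain, and the summed pair had a layer difference of the same direction as most members.

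The coding sequences of the pair are the same. Over the 252 coding bases, Rps27 and Gm9846 had 0 differences, while the paralogue Rps27l had 76.2% identity to Rps27 over the same 252 bases. The first 30 coding bases, from GENCODE vM21, are given with the bases of Rps27l that differ from Rps27 in capitals.
Rps27: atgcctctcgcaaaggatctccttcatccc
Gm9846: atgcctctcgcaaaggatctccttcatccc
Rps27l: atgccCctGgcTaGAgatctGTtAcaCccT
In this stretch Rps27l had 10 differing bases. How the authors' software divided reads between Rps27 and Gm9846 was not tested.

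Rpl26 encodes a large subunit protein near the exit of the peptide tunnel and lies at chr11:68901583-68906989 on the plus strand. It was listed at 0, 11.4 and 0 FPKM in ND IEL, 4.92, 18.4 and 24.2 in PA IEL, 0, 7.86 and 9.59 in ND LP, and at 0 in all 3 PA LP libraries, so no fold change against PA LP is given. Its processed pseudogene Gm15772, at chr5:3236431-3236868 on the plus strand, was listed at 686, 587 and 692 FPKM in ND IEL, 674, 833 and 676 in PA IEL, 1051, 906 and 766 in ND LP, and 1030, 1474 and 632 in PA LP. Nearly all FPKM of the pair were thus listed under the copy, at a level usual for core members. Summed, the log2 fold change of IEL over LP was -0.46 in ND and -0.41 in PA milk, and that of PA milk over ND was 0.17 in IEL and 0.12 in LP.

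Rpl30, of the large subunit, lies at chr15:34440505-34443640 on the minus strand. It was listed at 5.78, 3.23 and 0 FPKM in ND IEL, 12.4, 17.3 and 10.8 in PA IEL, 22.2, 17.7 and 21.0 in ND LP, and 60.7, 14.2 and 32.2 in PA LP. Its processed pseudogene Gm12191, at chr11:49678710-49679057 on the minus strand, was listed at 459, 380 and 379 FPKM in ND IEL, 342, 666 and 363 in PA IEL, 387, 341 and 396 in ND LP, and 755, 587 and 366 in PA LP. Again the copy held the higher value in every library. Summed, the log2 fold change of IEL over LP was 0.05 in ND, where Rpl30 alone gave -2.79, and -0.37 in PA milk, where Rpl30 alone gave -1.14. No summed member passed limma's adjusted threshold in a comparison, and the low values listed under Rpl26 and Rpl30 cannot be read as low expression of these genes.

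**Figure D3:**
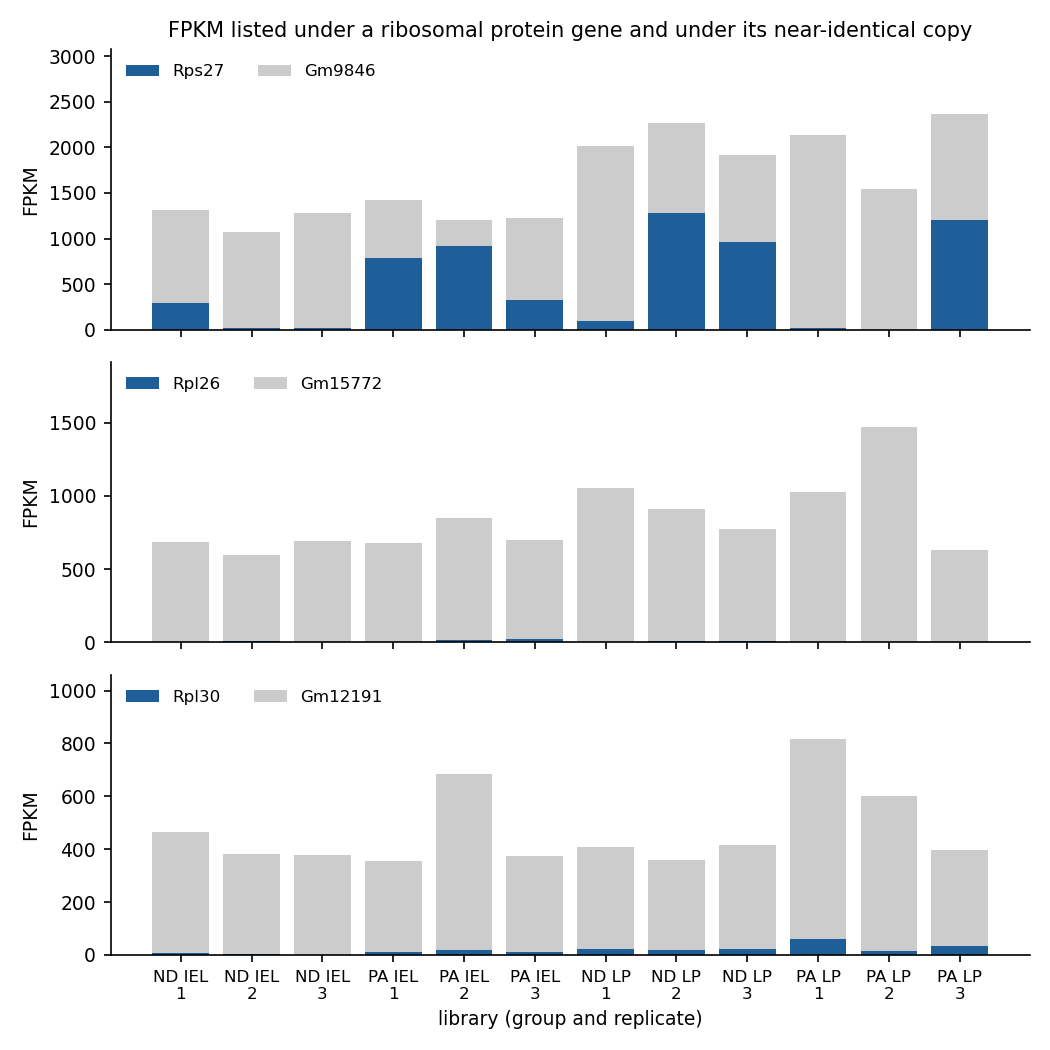
FPKM (vertical axis) listed under Rps27, Rpl26 and Rpl30 (blue) and under the near-identical copies Gm9846, Gm15772 and Gm12191 (grey, stacked on top) in each of the 12 libraries. The blue part for Rps27 varies from 0.234 to 1275 FPKM while the whole bar varies from 1075 to 2368, and the copies of Rpl26 and Rpl30 make up nearly all of their bars.

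Rpl26 and its copy differed at 2 of 435 coding bases, C177T and T288C, and Rpl30 and its copy at 1 of 345, G96A, counted from 1 at the first coding base with the base of the member first. Coding bases 162 to 191 of Rpl26 and 81 to 110 of Rpl30, from GENCODE vM21, are shown with the differing base in capitals, as examples of where the coding sequences differ. Untranslated regions were not compared.
Rpl26: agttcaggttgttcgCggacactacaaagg
Gm15772: agttcaggttgttcgTggacactacaaagg
Rpl30: cgtgctgggctacaaGcagactctgaagat
Gm12191: cgtgctgggctacaaAcagactctgaagat
Both copies lack the introns of their parent gene, so a read from spliced mRNA aligns to them without a gap. Rps15a, listed at 14.3 to 41.7 FPKM, had a median below those of all core members but Rpl26 and Rpl30. The 2 copies of it in the table had medians of 0.348 and 3.24 FPKM.

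Members with roles of their own were then followed. The stalk that recruits elongation factors is built from RPLP0, RPLP1 and RPLP2. Rplp0 was listed at 838, 857 and 600 FPKM in ND IEL, 636, 1360 and 508 in PA IEL, 781, 873 and 837 in ND LP, and 853, 623 and 709 in PA LP. Groups of Rplp0 overlapped throughout, and its log2 fold changes lay between -0.20 and 0.07 in the layer and diet comparisons. Rplp1 was listed at 944, 1009 and 663 FPKM in ND IEL, 953, 391 and 1109 in PA IEL, 1084, 1109 and 1219 in ND LP, and 1662, 1831 and 906 in PA LP. For IEL against LP it was at -0.40 in ND and -0.91 in PA milk (SE 0.38 for each). Rplp2 was listed at 862, 625 and 560 FPKM in ND IEL, 541, 1263 and 661 in PA IEL, 649, 727 and 768 in ND LP, and 1116, 1748 and 696 in PA LP. The highest Rplp2 value was in PA LP 2, and PA LP 3 lay within the ND range.

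Rps6 encodes the small subunit protein that S6 kinase phosphorylates downstream of mTOR. It was listed at 441, 424 and 379 FPKM in ND IEL, 433, 531 and 409 in PA IEL, 563, 553 and 519 in ND LP, and 562, 1126 and 505 in PA LP. Its layers stood apart in ND, at a log2 fold change of -0.40 (SE 0.36), and overlapped in PA milk, at -0.59. Rpsa, which encodes a small subunit protein also known as a laminin receptor, was listed at 267, 168 and 242 FPKM in ND IEL, 264, 336 and 322 in PA IEL, 347, 347 and 327 in ND LP, and 352, 366 and 251 in PA LP. It was at -0.62 (SE 0.41) in ND and -0.06 in PA milk. Rps14, of the small subunit and lost in the human 5q deletion syndrome, was at -0.40 (SE 0.27) in ND and -0.77 (SE 0.27, limma adjusted p = 0.393) in PA milk.

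RPL5 and RPL11 bind 5S ribosomal RNA and, when free, inhibit MDM2 and thereby stabilise p53. Rpl5 was listed at 174, 51.1 and 162 FPKM in ND IEL, 146, 110 and 134 in PA IEL, 237, 137 and 115 in ND LP, and 144, 245 and 146 in PA LP. Its groups overlapped in all comparisons. Rpl11 was listed at 519, 275 and 342 FPKM in ND IEL, 448, 512 and 419 in PA IEL, 403, 481 and 598 in ND LP, and 879, 1226 and 421 in PA LP. Its log2 fold change of PA milk over ND in LP was 0.66 (SE 0.42, limma adjusted p = 0.979), with PA LP 3 inside the ND range. Rpl13a, known for a role in interferon-gamma-dependent translational silencing outside the ribosome, was at 0.20 (SE 0.35) in IEL and 0.41 (SE 0.35) in LP for PA milk over ND. Rpl10, which joins the large subunit late in assembly, was at 0.01 and 0.11 (SE 0.32 for each).

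Paralogues were compared with their parent gene on the FPKM scale, which is per length. RPL22 is needed for development of alpha-beta T cells in mice. Rpl22 was listed at 38.7, 10.7 and 41.6 FPKM in ND IEL, 21.0, 45.3 and 39.5 in PA IEL, 45.8, 47.4 and 42.4 in ND LP, and 70.1, 55.3 and 37.4 in PA LP. Its paralogue Rpl22l1 was listed at 119, 77.1 and 99.9 FPKM in ND IEL, 92.8, 109 and 124 in PA IEL, 169, 184 and 168 in ND LP, and 260, 242 and 106 in PA LP. Rpl22l1 lay above Rpl22 in 12 of 12 libraries. Both had ND IEL values below all ND LP values, with log2 fold changes of -0.77 (SE 0.83) for Rpl22 and -0.83 (SE 0.56) for Rpl22l1.

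Rpl36al lay above its parent Rpl36a in 11 of 12 libraries, with medians of 658 and 319 FPKM, and the exception was PA LP 2, at 903 against 1148. Rps27l, a p53 target, had a median of 742 FPKM and lay above the value listed under Rps27 in 7 of 12 libraries, but Gm9846 has the same coding sequence as Rps27, and the summed pair was higher than Rps27l except in ND IEL 2 and PA IEL 3. Rps27l was at 0.42 (SE 0.36) for IEL over LP in ND and 0.43 (SE 0.36) in PA milk, opposite in sign to the median member.

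Other paralogues lay below their parents in all 12 libraries. Rpl7l1 was listed at 39.8, 55.7 and 55.0 FPKM in ND IEL, 65.6, 1.94 and 67.2 in PA IEL, 56.7, 79.4 and 68.5 in ND LP, and 77.0, 194 and 53.6 in PA LP, against a median of 457 for Rpl7. Its log2 fold change of PA milk over ND in IEL, -1.09, became 0.41 without PA IEL 2. Rps4y2 was listed at 29.1, 77.0 and 22.2 FPKM in ND IEL, 10.5, 0 and 32.5 in PA IEL, 0, 21.7 and 15.6 in ND LP, and 42.1, 0.124 and 66.6 in PA LP, against a median of 362 for Rps4x. Its log2 fold change for PA milk over ND was -2.38 (SE 1.72) in IEL and 1.04 (SE 1.72) in LP. The former was -0.95 without PA IEL 2, where it was listed at 0, and the latter -0.39 without ND LP 1.

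Paralogues linked to testis or muscle were at or near 0. Rpl10l was listed at 0 in all 12 libraries, Rpl39l at 8.85 FPKM in ND LP 2 and at 0 in the other 11, and Rpl3l at 2.89 in ND IEL 3, 0.861 in PA IEL 1 and 0 in the other 10. Their parents Rpl10, Rpl39 and Rpl3 had medians of 731, 400 and 500 FPKM. Coding identity to the parent was 84.7% for Rpl10l, 85.5% for Rpl39l, 74.4% for Rpl3l, 74.6% for Rpl22l1 and 87.7% for Rpl36al. Rps19bp1 was listed at 50.7, 50.8 and 41.7 FPKM in ND IEL, 72.5, 0 and 85.1 in PA IEL, 44.9, 48.7 and 42.7 in ND LP, and 52.6, 80.9 and 22.8 in PA LP. Its log2 fold change of PA milk over ND in IEL, -1.39, became 0.71 without PA IEL 2, where it was listed at 0.

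Members mostly varied together over the libraries. The Pearson correlation of a member's log2(FPKM + 1) with the mean of the other members over the 12 libraries, which share depth and group, had a median of 0.71, and 64 of 83 (77.1%) exceeded 0.5. The correlation of other tested genes with the member mean had a median of -0.16, with 5.05% of 12419 over 0.5, and among the 1005 with a median of at least 100 FPKM it was -0.06, with 13.8% over 0.5. It was highest for Rps21, at 0.92, and below 0 for Rps4y2 (-0.51), Rps27 (-0.31), Rps27l (-0.22), Rps19bp1 (-0.21) and Rpl26 (-0.20). Outside the set, the tested genes most like the member mean over the same 12 libraries were Shfm1 (r = 0.91), a proteasome subunit also known as Sem1, and Ptma (0.90), which encodes prothymosin alpha. Next came Vamp5 (0.90), Nme2 (0.87), Rg9mtd2 (0.87), Ppia (0.86), Polr2j (0.85), Gm16702 (0.84), Tsen34 (0.84) and Mif (0.83). Ppia, which encodes cyclophilin A, had a median of 4984 FPKM, and Rg9mtd2 one of 1.79.

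Fau, which encodes a ubiquitin-like protein fused to a small subunit protein, and Gnb2l1, the table's name for Rack1, a scaffold on the small subunit, fall outside the rule. Fau had a median of 797 FPKM and Gnb2l1 one of 332. For PA milk over ND, Fau was at -0.43 (SE 0.36) in IEL and 0.10 in LP, and Gnb2l1 at -0.08 (SE 0.46) and 0.66. For IEL over LP, Fau was at 0.60 in ND and 0.07 in PA milk, and Gnb2l1 at -0.02 and -0.76, and neither passed limma's adjusted threshold.

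The wider translation machinery was described by lists of genes. Of 13 elongation factors and other mRNAs with a TOP motif, led by Eef1a1 with a median of 1039 FPKM, 12 were lower in IEL than LP in ND (median -0.26) and 10 in PA milk (-0.20). For PA milk over ND their median was -0.02 in IEL and 0.05 in LP. The 31 tested initiation factors had medians of -0.12 and -0.21 for IEL over LP, and 0.02 and 0.13 for PA milk over ND. The 36 tested ribosome biogenesis genes, among them Npm1 with a median of 259 FPKM, were at -0.12 and -0.18 for the layers and 0.24 and 0.16 for the diet. Over all tested genes the medians were -0.09 and -0.03 for the layers in ND and PA milk and -0.30 and -0.36 for the diet in IEL and LP. In ND the layer medians of the initiation factors and of the biogenesis genes were thus close to that of all genes.

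RNA polymerase I makes the ribosomal RNA precursor. Its 14 genes had a median of -0.69 for PA milk over ND in IEL and 0.52 in LP, and -0.12 and -0.74 for IEL over LP in ND and PA milk. In the sparse PA IEL 2, 8 of the 14 were under 1 FPKM, against 5 in ND IEL 2 and at most 3 in another library, and without both sparse libraries the medians were -0.20 and 0.18 for the diet and -0.12 and -0.30 for the layers. Taf1a, a subunit of its selectivity factor, was listed at 9.40, 20.5 and 10.1 FPKM in ND IEL and 0.374, 0 and 0 in PA IEL. It had a log2 fold change of -3.61 (SE 1.25, limma adjusted p = 0.947). The 17 genes of mTOR signalling and TOP control, such as Larp1 and Myc, had medians of 0.06 in IEL and -0.74 in LP for PA milk over ND, and -0.29 and 0.37 for the layers. Under 1 FPKM were 8 of the 17 in PA LP 2, 7 each in PA LP 1, PA IEL 2 and ND IEL 2, and at most 4 in another library. Without both sparse libraries, which keeps PA LP 1 and ND IEL 2, the medians were 0.09 and -0.39 for the diet and -0.29 and 0.13 for the layers. Leaving out both for these lists was chosen after seeing the data. Of the 111 tested genes of these lists, 0 passed the adjusted threshold in any comparison with limma or limma-voom. At an unadjusted p under 0.05, limma gave Eif2s3x, Taf1a and Polr1c in IEL for the diet, where 0.752% of all tested genes were higher and 2.82% lower. It gave Nle1 and Taf1a for the difference of the diet effect between layers (0.912% and 1.42%). For the layers in PA milk it gave Eif4a2, Gar1, Eif6, Taf1a and Polr1c (4.92% and 5.70%). These 3, 2 and 5 of 111 genes were no larger a part than among all tested genes. Limma-voom gave 2, 0, 2, 2 and 3 genes in the diet comparisons in IEL and LP, their difference, and the layer comparisons in ND and PA milk.

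Start sites of the genes were examined because most members varied together. RefSeq promoter windows of GRCm38.p6 matched 65 members, 57 of them core members with 67 windows. A C at the annotated start followed by at least 4 pyrimidines was found in 13 of the 67 windows (19.4%), against 823 of 32851 windows of all genes (2.51%). Within 10 bases of the start such a tract was found in 36 (53.7%), against 30.7%. The letters CCGGAAG, searched on both strands over the whole window, were in 25 (37.3%) against 8.86%, and AAGATGGC in 7 (10.4%) against 2.75%. TATAAA was in 6 (8.96%) against 13.6%, and CCAAT in 21 (31.3%) against 37.4%. A match is a description of the letters and no sign of a bound factor.

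As examples, 30 bases around the start are given from RefSeq GRCm38.p6, 15 before it and 15 from it on, for 5 members picked because the tract begins at their start and 3 picked as members without it. They do not show how common the tract is, for which the counts above stand. Capitals mark the C and the pyrimidines that follow it where the tract begins at the annotated start. The windows lie at chr2:39005117-39005146 on the minus strand for Rpl35, chr11:114668565-114668594 on the plus strand for Rpl38, chr4:86857353-86857382 on the minus strand for Rps6, chr7:141447636-141447665 on the plus strand for Rplp2, chr3:90213634-90213663 on the minus strand for Rps27, chr8:123102335-123102364 on the plus strand for Rpl13, chr10:128549154-128549183 on the minus strand for Rpl41 and chr5:115559452-115559481 on the plus strand for Rplp0.
Rpl35: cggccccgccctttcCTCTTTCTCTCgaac
Rpl38: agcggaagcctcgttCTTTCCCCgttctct
Rps6: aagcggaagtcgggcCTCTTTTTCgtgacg
Rplp2: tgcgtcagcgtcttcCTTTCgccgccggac
Rps27: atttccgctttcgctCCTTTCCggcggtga
Rpl13: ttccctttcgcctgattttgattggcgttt
Rpl41: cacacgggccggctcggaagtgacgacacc
Rplp0: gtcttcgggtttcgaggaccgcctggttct
Rpl13 and Rpl41, the members with the highest medians, and Rplp0 had no such tract within 10 bases of this annotated start, nor had Rpl5, Rpl10, Rpl11 and Rpsa. In the window of Rpl13, pyrimidines further upstream lay outside that search.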

How the data were processed

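RNA of sorted ILC3s was compared over 12 libraries. The authors deposited FPKM values for 23284 genes, quantified with Cufflinks 2.2.1 after mapping to mm10 (TopHat2 2.1.1, Bowtie2 2.2.8.0 and SAMtools 0.1.18; Cuffdiff 2.2.1 is also listed in the submitters' processing notes). The authors also deposited a second table, a signal of counts divided by a size factor, so no model for raw counts was used.

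The 12502 genes that reached 1 FPKM in 3 or more libraries were tested on log2(FPKM + 1), a scale that understates changes of low genes, with limma 3.58.1 (R 4.3.3), a mean-variance trend and 1 fit of the 4 group means. P-values are two-sided and were adjusted by the Benjamini-Hochberg method over all tested genes, with a threshold of 0.05. The script was tested on simulated data. Named members were the 10 with the highest median, the 4 with the smallest p and the 3 most positive and 3 most negative per comparison, a fixed set with special roles, paralogues, members listed at 0, and the 10 other genes most like the member mean. Other members named, such as Rpl14, Rps23, Rpl37a, Rps4x and Rps15a, and the copies, were singled out after their values were seen. Members and lists were chosen with earlier results of these data known.

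Coding sequences were aligned with blastn 2.17.0 to GENCODE vM21 transcripts, and start windows came from RefSeq GRCm38.p6 (Biopython 1.88). Tables used Python 3.11.15, numpy 2.4.6 and pandas 2.3.3, and plots matplotlib 3.10.9. Alternatives were a pseudocount of 0.1, upper quartile and median ratio scaling, no filter, a filter of 5 FPKM in 6 libraries, fits of only the groups compared, the replicate block, limma-voom, each library left out, and both sparse libraries left out. Copies summed with members, and marker genes left out of the total, were added after seeing the data.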

Additional observations from a re-analysis of the deposited data

How the results depend on the processing

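Over the alternatives, each leave-one-out fit included, 0 members passed the adjusted threshold in all 5 comparisons. The spread of the library median over members within groups, 0.30, was larger than both diet medians. Without both sparse libraries those were -0.003 in IEL, with 41 of 83 members higher, and 0.02 in LP, with 47 higher. The layer medians, -0.33 in ND and -0.40 in PA milk, were only a little larger in size than this spread. Without PA LP 2 the one in PA milk was -0.18, smaller than the spread. With a library left out, the median over members ranged from -0.003 to 0.29 for the diet in IEL and 0.02 to 0.46 in LP. It ranged from -0.14 to 0.23 for their difference. For IEL over LP it ranged from -0.40 to -0.26 in ND and -0.61 to -0.18 in PA milk. Upper quartile scaling gave 0.08 and 0.10 for the diet, with 54 of 83 members higher in each layer. For the diet in IEL and LP, the median of all genes shifted by -0.66 and -0.65 with limma-voom, by -0.33 and -0.36 with the smaller pseudocount, by 0.16 in each without a filter and by 0.30 in each without both sparse libraries, and limma-voom gave members medians of 0.16 and 0.07.

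Counts over all genes moved more. For IEL over LP in ND, 4 genes passed, against 1 with a pseudocount of 0.1, 0 without a filter, 1 with the stricter filter, 92 with only the groups compared, 0 with limma-voom, 113 without both sparse libraries and 0 (without ND IEL 2) to 65 (without PA LP 2) with a library left out. In PA milk, 18 passed, against 3 without a filter, 1 with only the groups compared, 314 without both sparse libraries and 1 (without PA LP 1) to 289 (without PA LP 2) with a library left out. For the diet, 0 passed in both layers, against 1 in LP with the stricter filter, 0 to 1 in IEL and 0 to 8 in LP with a library left out. The cause was not tested.

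Of 378 values of named members outside leave-one-out, 368 kept their direction. Without both sparse libraries, Rps19bp1 was at 0.71 for the diet in IEL, -1.09 for the difference and 1.16 for the layers in PA milk, Rpl7l1 at 0.41, -0.49 and 0.05, and Rpl29 at -0.13 for the layers in PA milk. With copies summed, an alternative chosen after seeing the data, Rpl30 was at 0.42 for the difference and 0.05 for the layers in ND, and Rps27 at -0.63 for the layers in PA milk. With a library left out, Rps19bp1 ranged from -2.50 to 0.71 for the diet in IEL, -0.69 to 2.52 for the difference and -2.46 to 0.76 for the layers in PA milk, Rpl7l1 from -1.85 to 0.41 for the diet in IEL, and Rps4y2 from -0.39 to 2.90 in LP.

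With the replicate number as a block, the medians over members were the same, 0 members passed, and 3 genes passed for the diet in LP in place of 0. The 18 pairs with the same number had correlations of deviations from group means between -0.12 and 0.12, 2 of them over 0.1. For pairs with other numbers the range was -0.12 to 0.13, and 4 of 12 libraries correlated best with their own number. Correlations this weak cannot tell whether libraries of the same number came from the same mouse, which the labels do not say.

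Group shares of FPKM moved with a library left out to 5.04% to 6.19% in ND IEL, 6.08% to 7.72% in PA IEL, 7.05% to 7.88% in ND LP and 7.82% to 10% in PA LP. With copies included they were 5.95%, 7.12%, 7.81% and 9.29%.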

Other observations

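Markers of further cell types, which enter the total that the ribosomal protein share is taken of, varied between libraries. The 7 goblet cell genes, led by Spink4 with a median of 431 FPKM, summed to 3624, 102 and 6282 FPKM in ND IEL, 387, 1.84 and 343 in PA IEL, 26692, 2462 and 13995 in ND LP, and 169, 603 and 1388 in PA LP. All 3 PA LP sums lay below all ND LP sums. The 6 Paneth cell genes, led by Defa24 with a median of 769 FPKM, summed to 3136, 413 and 2648 in ND IEL, 217, 175 and 54.8 in PA IEL, 5218, 634 and 2724 in ND LP, and 341, 3188 and 3458 in PA LP. PA IEL sums lay below those of ND IEL, and those of LP overlapped. The 9 myeloid genes, led by Lyz2, summed to between 150 FPKM in ND IEL 3 and 10824 in ND LP 1, and the 9 T cell genes, led by Lck, to between 20.9 in ND IEL 2 and 607 in ND IEL 3.

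Cd3e, a T cell receptor component, was listed at 23.5, 0 and 87.5 FPKM in ND IEL, at 0 in all 3 PA IEL libraries, at 25.8, 39.3 and 48.9 in ND LP, and 13.6, 0 and 26.1 in PA LP. The 7 stromal and endothelial genes, led by Pecam1, summed to between 2.28 FPKM in ND IEL 2 and 487 in PA LP 3, and the 6 NK and ILC1 genes, led by Klrd1, to between 0 in PA IEL 2 and PA LP 1 and 101 in PA LP 3. Of the erythroid genes, led by Hbb-b2, 5 were listed, with sums between 0.161 in ND IEL 3 and 85.0 in ND LP 2.

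Eif5a, an initiation factor list member that carries hypusine, was the most abundant of that list, at 1439, 1268 and 1335 FPKM in ND IEL, 1517, 3495 and 1266 in PA IEL, 1241, 1693 and 1364 in ND LP, and 1974, 3182 and 1345 in PA LP. Its highest values were in the sparse libraries PA IEL 2 and PA LP 2.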
